A study of Mus musculus with 39 samples.

Results

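The effect of 20 µg of the ethano-botanical formulation KAL-1 on gene expression under a high-fat diet was examined in brown infiltrating macrophages, the stromal vascular cells (SVCs) of brown fat. All arrays labelled HF20 (6 of 6) were set against the high-fat control arrays (HFC) of the same weeks (6 of 11), which makes 12 of the 39 arrays of the series. The pairs were taken every 3 weeks from Week 3 to Week 18, with 1 array per diet and week, and weeks were counted after Day 14. The mice were of strain C57BL/6J and were divided into groups after weaning, at an age of 3 to 4 weeks. Both groups received a high-fat high-sucrose diet with 60% of calories from fat, and the HF20 group received KAL-1 in addition, as an aqueous formulation. At each time point 5 animals per group were sacrificed, and whether the RNA of an array came from 1 animal or from a pool is not given in the sources used here. The Week 12 HF20 array was placed in that group by its title and source name, although its diet characteristic names only the high-fat diet. The same title ends in BA. What BA stands for, and whether this array is of another tissue than the others, was not tested. No week has a replicate in either group, so p-values measure only the spread over the 6 weekly pairs, which differ in age and time on diet.

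Brown fat burns lipid to make heat. Its fat cells carry many mitochondria in which Ucp1 uncouples respiration, and they lie among blood vessels, fibroblasts and resident immune cells, which together form the stromal vascular fraction. Macrophages of fat clear dying cells and free lipid, and in obese white fat they are known for the release of Tnf, Il1b, Il6 and chemokines. Cells that secrete much protein or that are loaded with lipid are known to raise the chaperones of the endoplasmic reticulum (ER) through the unfolded protein response.

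The levels below are log2 of the processed signal minus the 75th percentile of the array, so that 0 is the 75th percentile, and a difference is HF20 minus HFC on this log2 scale. The arrays differed widely in brightness. The 75th percentile of the HF20 arrays lay between 18.1 (Week 9) and 3974 (Week 15) signal units, and that of the HFC arrays between 46.2 (Week 18) and 950 (Week 12). On the HF20 array of Week 15, 71.4% of spots were flagged as outliers by the scanner software, and on the HFC array of Week 12, 11.1%, against 0.13% at most on the other arrays. Flagged spots were left out, so 17070 of the 27486 probes tested had no Week 15 pair and rested on the other weeks. The surviving spots of the Week 15 HF20 array were shifted, with a median difference of -2.72 over all genes measured there, against medians of -0.16 to 0.23 in the other weeks. The shift was not even. In 3 equal groups of probes by signal, the Week 15 median was 0.33 in the dimmest, -1.95 in the middle and -3.15 in the brightest. List medians are therefore given with and without Week 15. On the bright arrays of Week 6 (HFC), Week 9 (HFC) and Week 12 (both diets) the highest readable level was 6.11 to 6.76, and on the HF20 array of Week 15 it was 4.19, so the brightest genes have only a lower bound there. The number of cells of a type and the RNA per cell cannot be told apart in these samples.

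**Figure D1:**
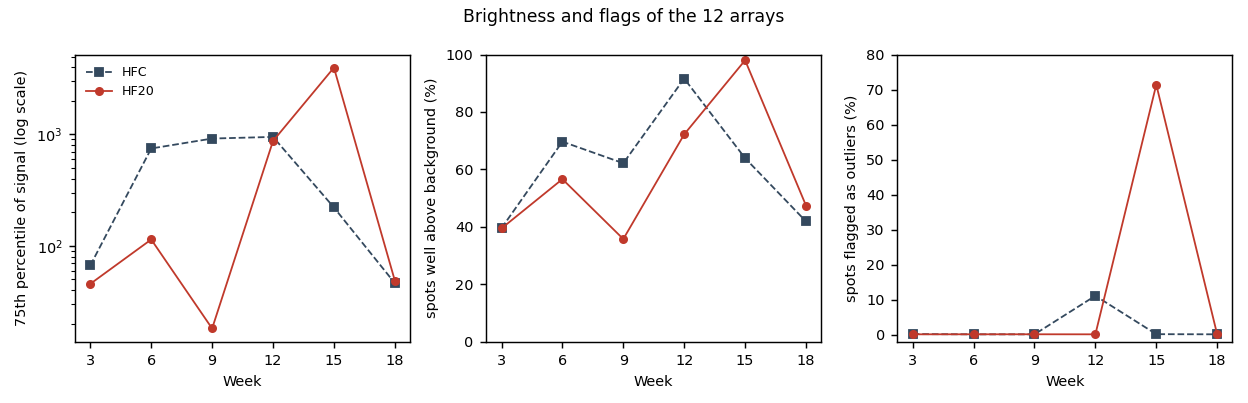
Measures of each of the 12 arrays by week, with HFC as squares and HF20 as circles: the 75th percentile of the signal on a log axis, the percentage of spots well above background and the percentage of spots flagged as outliers. The Week 15 HF20 array is the highest in each panel, and the HF20 array of Week 9 is the dimmest with a 75th percentile of 18.1.

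The cells were labelled as brown infiltrating macrophages, and markers of several cell types were read to check the label. The macrophage surface gene Emr1 was well above background on all 12 arrays. It stood at 1.64, 2.17, 2.28, 0.45, -1.42 and 1.34 on the HF20 arrays from Week 3 to Week 18, and at 1.39, 0.48, 0.33, 3.71, 1.98 and 0.96 on the HFC arrays. Brown fat genes were also read on all arrays. Ucp1 stood at 6.80, 6.75, 8.82, 6.41, 1.48 and 7.08 on HF20 and at 5.26, 6.44, 6.15, -3.18, 6.70 and 6.61 on HFC. So Ucp1 lay above the 75th percentile on 11 arrays and below it on the HFC array of Week 12, where Cidea, a lipid droplet protein of brown fat, was at -0.29 and the mesothelial gene Msln at 4.08. Msln was at -2.91 or lower on the other arrays that measured it. The HFC array of Week 12 thus went against the pattern of markers of the other HFC arrays, and list medians whose sign turned without it are given without it as well. This array had the highest median level of the macrophage genes listed, 3.12, against 1.70 for the fat cell genes. On the other 11 arrays the fat cell median lay above the macrophage median, by the least on HF20 at Week 15 (0.76 against 0.14). Most arrays labelled as macrophages thus read fat cell genes more strongly than macrophage genes.

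**Figure D2:**
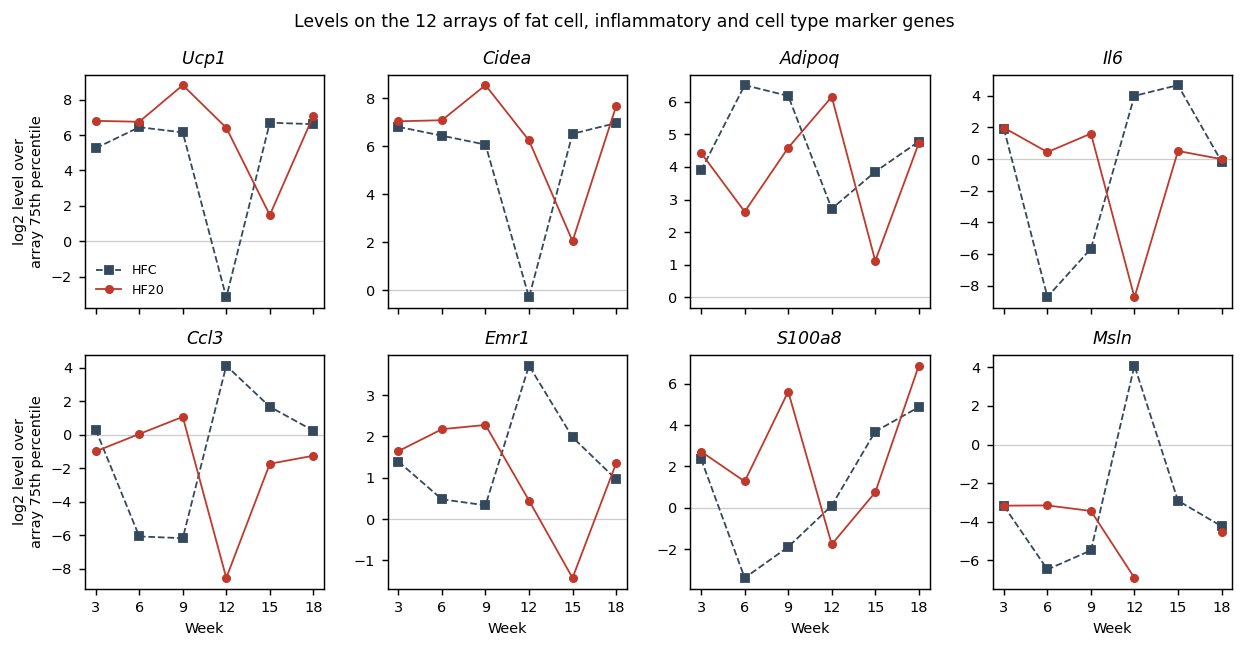
Log2 level over the 75th percentile of the array, by week, of Ucp1, Cidea and Adipoq (fat cells), Il6 and Ccl3 (inflammation), Emr1 (macrophages), S100a8 (neutrophils) and Msln (mesothelium), with HFC as squares and HF20 as circles. The HFC array of Week 12 is the lowest for Ucp1 (-3.18) and the highest for Msln (4.08), and a missing point is a flagged spot.

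No probe passed the threshold in the comparison of HF20 with HFC. In limma with the week as a block, 0 of 27486 probes and 0 of 19952 genes (0%) had an adjusted p under 0.05, the lowest being 0.999. Before adjustment 1105 probes, 1006 higher and 99 lower on HF20, were under 0.05, where 1374 would be expected with no difference at all. By the methods' t-test, run with the weeks as replicates, 0 probes passed after Benjamini-Hochberg adjustment and 382 had an unadjusted p under 0.05. The median standard error of a difference was 0.62, which limited what could be called. In simulated data of the same size the fit recovered 0% of genes changed 4-fold and 56.5% of those changed 16-fold. The differences below are therefore values that did not pass, given with their error and their sign in each week. Over all genes the median difference was -0.15, with 59.4% of the genes lower on HF20, and without Week 15 it was 0.03, with 47.3% lower. The choice of scaling moved this median between -0.38 (each array's median, 69.9% of genes lower) and 0.03 (normexp background correction, 48.5% lower), so a list is to be read against this shift. Among genes well above background on all 12 arrays, 75.6% were lower on HF20, with a median of -0.32. A list of bright genes is to be read against these values too.

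The pairs differed strongly in single weeks, in different directions. Among probes well above background on both arrays, 2650 of 14497 were at least 2-fold apart at Week 3 and 4657 of 15628 at Week 18. At Week 12 they were 13430 of 27129, and at Week 6 11500 of 22820. At Week 9 there were 5647 of 14462, and at Week 15 8866 of 9918, of which 7967 were lower on HF20. With 1 array per diet and week there is no replicate check on these counts.

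By the difference fitted over the weeks, the ER chaperone and stress genes were lower on HF20 in nearly all members, though not in each week. Of 29 genes in the list 27 were tested, and 26 of these were lower on HF20 (59.4% of all genes were), with a median difference of -0.67. Without Week 15, 24 of 27 were lower (47.3% of all genes), with a median of -0.41 beside 0.03 over all genes, and without both Week 12 and Week 15, 22 of 27 with a median of -0.26. The median was below 0 under all 24 alternative settings, between -0.86 and -0.26. None of the 27 passed the adjusted threshold, and Hspa5 alone had an unadjusted p under 0.05 (0.351% of all genes had this and were lower). In the weeks whose pair was scanned on a shared date (Week 6, Week 12 and Week 15) the median was -0.84, beside -0.26 over all genes. These weeks include the shifted Week 15 array. By week it was -0.20, -0.04, -0.36, -0.83, -3.27 and -0.68 from Week 3 to Week 18, so that it was close to 0 at Week 6 and furthest from it at Week 15, where 14 of 14 measured genes were lower as were 86% of all genes.

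Many ER chaperone genes share a promoter sequence, the ER stress element, through which the sensor Atf6 is known to act together with the CCAAT-binding factor NF-Y. The element was searched as CCAAT and CCACG with 9 bases between them, on both strands, in the 250 bases before the transcript start in the RefSeq promoter table (GRCm38.p6). It was found in 9 of the 26 genes of the list that have a promoter there (34.6%) and in 35 of 27025 genes in all (0.13%). These 9 genes were Hspa5, Hsp90b1, Calr, Canx, Pdia6, Dnajc3, Creld2, Derl3 and Syvn1. The 200 bases before the start of 5 of them are printed, since they show the element that these 9 genes share, with the matched bases in capitals. They cover chr2:34771890-34772089 for Hspa5 (plus strand), chr12:17266389-17266588 for Pdia6 (plus strand), chr11:50325674-50325873 for Canx (minus strand), chr15:88819446-88819645 for Creld2 (plus strand) and chr19:6046376-6046575 for Syvn1 (plus strand). In Creld2 the match is on the opposite strand.
Hspa5: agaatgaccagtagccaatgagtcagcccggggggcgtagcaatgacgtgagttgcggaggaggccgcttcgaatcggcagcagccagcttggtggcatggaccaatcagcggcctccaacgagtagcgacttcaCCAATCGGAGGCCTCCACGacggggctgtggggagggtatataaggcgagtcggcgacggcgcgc
Pdia6: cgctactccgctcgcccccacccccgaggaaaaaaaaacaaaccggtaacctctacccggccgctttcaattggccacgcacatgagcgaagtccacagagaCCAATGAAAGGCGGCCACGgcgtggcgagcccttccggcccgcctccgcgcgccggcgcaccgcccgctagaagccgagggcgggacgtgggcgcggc
Canx: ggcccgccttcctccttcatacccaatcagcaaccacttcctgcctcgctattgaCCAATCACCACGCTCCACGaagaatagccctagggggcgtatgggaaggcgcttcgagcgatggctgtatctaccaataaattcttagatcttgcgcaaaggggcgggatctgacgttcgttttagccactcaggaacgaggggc
Creld2: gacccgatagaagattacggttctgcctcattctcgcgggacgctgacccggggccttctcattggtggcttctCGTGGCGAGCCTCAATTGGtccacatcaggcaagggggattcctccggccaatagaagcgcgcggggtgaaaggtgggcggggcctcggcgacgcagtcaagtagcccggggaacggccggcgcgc
Syvn1: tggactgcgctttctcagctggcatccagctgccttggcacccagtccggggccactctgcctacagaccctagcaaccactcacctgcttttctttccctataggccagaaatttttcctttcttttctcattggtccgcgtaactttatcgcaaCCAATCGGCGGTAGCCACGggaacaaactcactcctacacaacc
All 9 genes with the element were lower on HF20 (59.4% of all genes), with a median difference of -0.90. Without Week 15, 9 were lower too (47.3% of all genes), with a median of -0.51. Of the 15 tested genes of the list whose promoter lacked a match, 14 were lower, with a median of -0.36, and 12 without Week 15, with a median of -0.26. At Week 3 the median was 0.03 with the element and -0.28 without it, and in each other week it was lower with it. Over all tested genes with the element, in the list or not, 13 of 16 were lower (59.4% of all genes), with a median of -0.64. These 16 include the 9 genes of the list, so they are not a separate set. The split was made with the sign of these genes known, so these are descriptions, and a match is not a bound site.

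Hspa5, which encodes BiP, the main Hsp70 chaperone of the ER lumen, showed the lowest value of the list. Its level was 2.64, 4.86, 4.18, 4.61, 1.49 and 3.72 on HF20 and 4.86, 4.90, 4.87, 6.01, 5.82 and 4.49 on HFC. It was lower on HF20 in all 6 weeks, by the least at Week 6, and the groups overlapped. The difference was -1.58 ± 0.60 (SE, 6 weeks), with an unadjusted p of 0.026 and an adjusted p of 0.999 in limma. Without Week 15 it was -1.03 ± 0.44. In the weeks with a shared scan date it was -1.92, from -0.04 at Week 6, -1.40 at Week 12 and -4.32 at Week 15.

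Canx and Herpud1 were the other genes of the list that were lower in all 6 weeks, and so 3 of 27 were (1.5% of all genes were lower in every week measured). Canx, the membrane-bound lectin chaperone calnexin, stood at 3.61, 3.22, 2.55, 3.47, 0.35 and 2.91 on HF20 and at 3.99, 3.57, 3.13, 4.30, 3.32 and 3.29 on HFC. Its difference of -0.92 ± 0.51 became -0.51 ± 0.36 without Week 15. Herpud1, which acts in the removal of misfolded proteins, had -1.14 ± 0.52 and, without Week 15, -0.73 ± 0.39. Syvn1, the ubiquitin ligase of the same pathway, had -1.27 ± 0.59, yet its pairs of Week 3 and Week 12 were slightly higher on HF20.

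Folding enzymes and lectins were also mostly lower. Pdia6, a protein disulfide isomerase, had -1.31 ± 0.61 and Calr, the soluble lectin calreticulin, -0.84 ± 0.53. Hyou1, a large chaperone of the lumen, stood at 0.15, 0.20, -0.33, 1.11 and -0.64 on HF20 and at 1.07, 1.92, 1.11, 1.06 and 0.29 on HFC in the 5 weeks other than Week 15, lower on HF20 in 4 of them. Hsp90b1, the Hsp90 of the ER, stood at 3.77 to 5.01 on HF20 and 4.31 to 5.58 on HFC, for a difference of -0.51 ± 0.54 over 5 weeks. The exception was Pdia3, a disulfide isomerase that works with calnexin, at 1.24 ± 0.69 over 5 weeks, at levels of 0.44 or lower on every array that measured it.

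The regulators of the response were lower by less than 1 on the log2 scale. Atf6, the sensor that is cut to a transcription factor, had -0.76 ± 0.51 over 5 weeks, Eif2ak3 (PERK) -0.43 ± 0.51, Ern1 (IRE1) -0.26 ± 0.63 and Xbp1, the transcript that IRE1 splices, -0.18 ± 0.54. Atf4 had -0.16 ± 0.45 and Ddit3 (CHOP), a gene of prolonged stress, -0.23 ± 0.50. Each of these was within 2 standard errors of 0, as were Canx, Calr, Hsp90b1 and Pdia3. Atf3 had the widest spread of the list, from -7.56 at Week 12 to 7.20 at Week 6, in the same direction by week as the inflammatory genes described below.

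**Figure D3:**
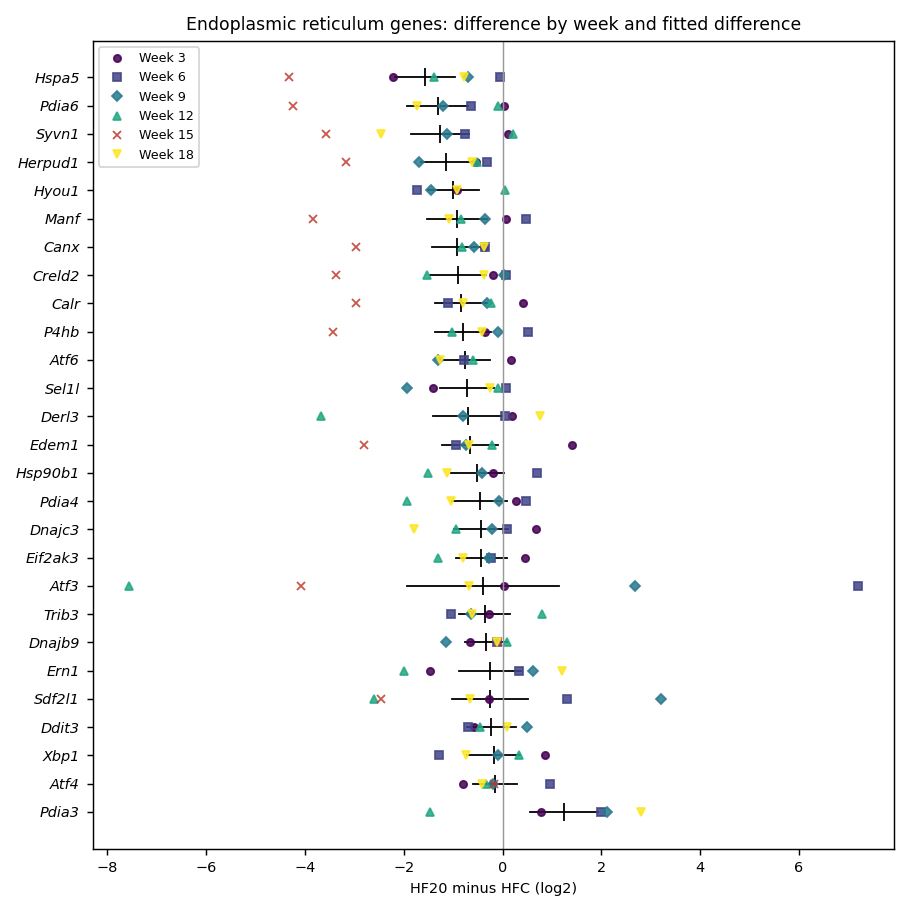
Difference HF20 minus HFC (log2) of the 27 ER genes tested, with 1 symbol per week, the fitted difference as a vertical bar and its standard error as a horizontal line. The fitted value is below 0 for 26 of 27 genes, and the crosses of Week 15 lie furthest to the left for most genes measured there.

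Among the 12 lower genes of smallest p with one sign in every week measured, 6 besides Hspa5 were well above background on all 12 arrays and 5 were so on 9 to 11 arrays. Bst2, the interferon-induced membrane protein tetherin, stood at 2.37, 2.99, 2.42, 2.12, 0.26 and 1.71 on HF20 and at 4.87, 3.34, 2.69, 3.02, 3.12 and 3.25 on HFC. The gap was widest at Week 15 and Week 3 and narrow at Week 6 and Week 9. Its difference was -1.40 ± 0.52, or -1.11 ± 0.47 without Week 15, with an adjusted p of 0.999 in limma.

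Scarb1, the scavenger receptor that takes up cholesterol from high-density lipoprotein, was at 2.41, 1.48, 0.97, 1.49, -1.08 and 0.41 on HF20 and at 3.01, 2.71, 2.14, 1.65, 1.99 and 2.39 on HFC. The HF20 values lay mostly under the HFC values, and the HF20 array of Week 3 alone reached into their range. The difference was -1.37 ± 0.51, and -1.03 ± 0.42 without Week 15. Lamp2, a protein of the lysosomal membrane needed for autophagy, was at 0.94, 2.63, 2.10, 3.43, 0.61 and 2.35 on HF20 and at 3.16, 3.06, 3.28, 4.27, 3.40 and 2.60 on HFC. Its difference was -1.29 ± 0.50, with the narrowest gaps at Week 6 and Week 18, and a further probe of Lamp2 gave -0.77 ± 0.51.

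Tnks2, a poly-ADP-ribosylating enzyme of the Wnt and telomere pathways, had -1.27 ± 0.48 and -0.98 ± 0.39 without Week 15. Crocc, a structural protein of the ciliary rootlet, had the smallest p of these 12 genes, at -1.55 ± 0.45 with an unadjusted p of 0.00635 and an adjusted p of 0.999 in limma. Atp1b1, a subunit of the sodium pump, had -1.36 ± 0.49 over 5 weeks. Sned1 had -1.16 ± 0.48, Gm7928 -1.47 ± 0.56 and Nat9 -1.48 ± 0.59, the last over 4 weeks. One of the further probes of Sned1 gave 0.14 ± 0.55, so its probes differed in sign.

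**Figure D4:**
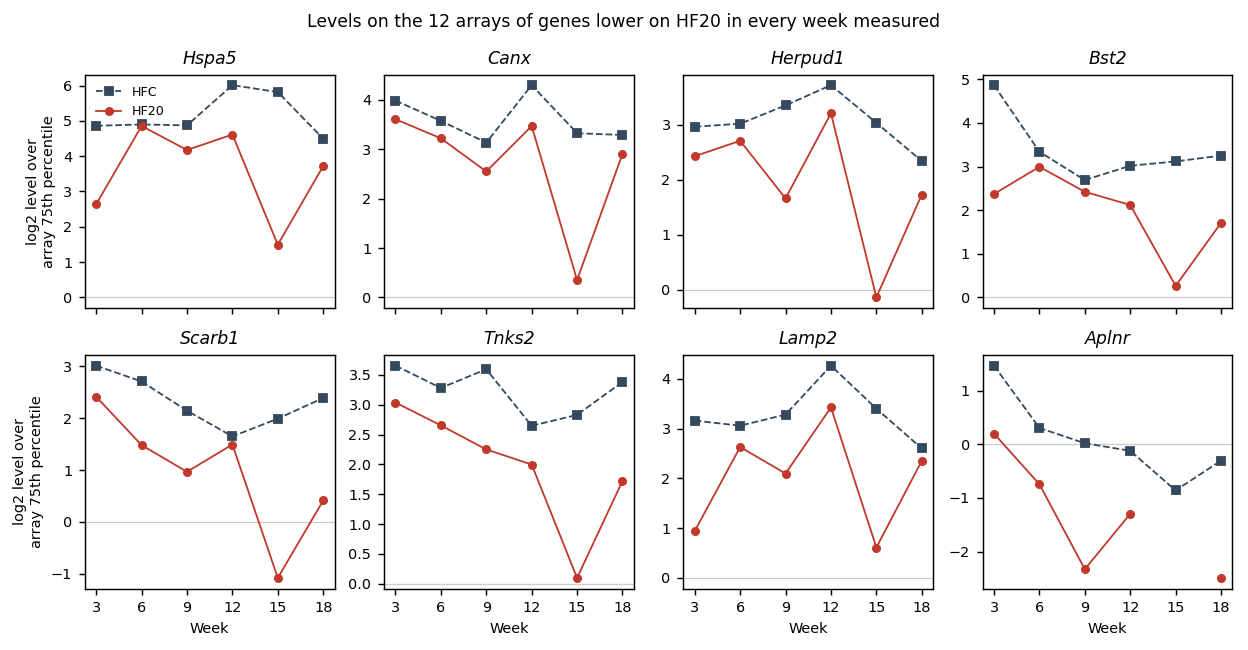
Log2 level over the 75th percentile of the array, by week, of Hspa5, Canx, Herpud1, Bst2, Scarb1, Tnks2, Lamp2 and Aplnr, with HFC as squares and HF20 as circles. In each of the 8 panels the HF20 point lies under the HFC point of the same week, by the widest gap at Week 15 where it was measured, except for Aplnr, which has no HF20 point there.

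Bst2 belongs to the interferon response genes, which cells switch on when type I interferon is sensed. Of the 30 genes in this list all were tested, 26 were lower on HF20 (59.4% of all genes) and none passed. The median was -0.45, and -0.37 without Week 15, again with 26 of 30 lower. Without Week 12 it was -0.12, with 17 of 30 lower, beside -0.21 and 58.6% lower over all genes. Without both Week 12 and Week 15 it was -0.02, with 15 of 30 lower, beside 0.03 and 48.6% lower over all genes. By week the median ran -0.03, 0.51, 0.65, -1.85, -2.21 and -1.19. Bst2 alone was lower in all 6 weeks. Isg15, a ubiquitin-like protein of this response, was at 0.21, 0.40, 0.53, -0.83 and -0.42 on HF20 and at 1.99, -0.88, -0.95, 2.26 and 1.20 on HFC in the 5 weeks it was measured on both. It was lower on HF20 at Week 3, Week 12 and Week 18 and higher at Week 6 and Week 9.

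Endothelial genes were lower in a similar share. Of 19 tested, 18 were lower (59.4% of all genes), with a median of -0.82, and 16 without Week 15, with a median of -0.47. Without both Week 12 and Week 15, 16 of 19 were lower with a median of -0.35, and the median was below 0 in all 24 alternative settings. By week it was -0.27, 1.24, -0.25, -0.90, -3.22 and -2.19, so that endothelial genes were higher on HF20 at Week 6, in 17 of 19 genes, and lower at Week 18, in 18 of 19 (57.6% of all genes were lower at Week 18). Cldn5, a tight junction protein of vessels, shows this course: it was at 5.08, 4.52, 3.72, 1.37, 0.99 and 2.40 on HF20 and at 5.10, 3.23, 3.85, 4.43, 4.57 and 5.15 on HFC. Its difference was -1.38 ± 0.71. Kdr, the VEGF receptor, was at 0.96 on HF20 and 4.40 on HFC at Week 18.

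Aplnr, the receptor of the peptide apelin on vessels, was the only endothelial gene lower in every week measured. It stood at 0.20, -0.74, -2.33, -1.30 and -2.49 on HF20 and at 1.47, 0.31, 0.02, -0.12 and -0.30 on HFC, without Week 15. The difference was -1.61 ± 0.51, with an unadjusted p of 0.0115 and an adjusted p of 0.999 in limma. It was well above background on 3 of the 6 HF20 arrays and on all HFC arrays, and a further probe of Aplnr gave 0.94 ± 0.69, in the opposite direction. Its ligand Apln was the one endothelial gene higher on HF20, at 0.78 ± 0.53, mainly through Week 18 with 3.45 on HF20 and 0.73 on HFC.

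The 12 higher genes of smallest p, chosen by the same rule, lay mostly below the 75th percentile on HFC. Il12rb2, the signalling chain of the interleukin-12 receptor on T and natural killer cells, had the smallest p of these 12 genes. It was at -1.65, -1.56, -1.51, -4.18, -2.60 and 2.53 on HF20 and at -3.22, -6.43, -5.67, -5.38, -3.12 and -0.75 on HFC. It was higher on HF20 in all 6 weeks, and the HF20 array of Week 18 was the highest. The difference was 2.60 ± 0.65, with an unadjusted p of 0.00257 and an adjusted p of 0.999 in limma, and 3.02 ± 0.63 without Week 15.

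The same form was seen in the other 11. Dmpk, the kinase of myotonic dystrophy, had 2.54 ± 0.65, Slc6a14, an amino acid transporter, 2.77 ± 0.72, and Pax7, the transcription factor of muscle stem cells, 2.66 ± 0.73. Tas1r1, a taste receptor for amino acids, had 2.97 ± 0.76 and Slc25a23, a mitochondrial carrier of ATP-Mg and phosphate, 1.91 ± 0.51. Tmem40 had 3.06 ± 0.76, Tmem198 2.79 ± 0.77, Gm3768 2.65 ± 0.67, 1600025M17Rik 2.63 ± 0.71 (4 weeks) and Olfr1255, an olfactory receptor, 2.27 ± 0.63. Iqcc had 2.33 ± 0.60, but a further probe of it gave -1.23 ± 0.58. Of these genes Dmpk alone was measured on both arrays of Week 15 besides Il12rb2.

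In each of the 12 the highest level was that of the HF20 array of Week 18. In most of them the widest gap to HFC lay at Week 6 or Week 9, where the HFC arrays were the brighter ones. There the lowest level well above background was -7.62 (Week 6) and -6.68 (Week 9) on HFC, but -4.79 and -2.35 on HF20, so that a dim probe could not read as low on the HF20 array. Among the dimmest of 3 equal groups of probes the median difference at Week 9 was 1.38. The part of brightness in the higher values of these genes was not tested. In all, 2.02% of genes were higher in every week measured and 4.26% were higher at an unadjusted p under 0.05.

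In 11 genes the HF20 and HFC values did not overlap, 9 higher (0.0451% of all genes) and 2 lower (0.01%). The 2 lower genes, singled out after their values were seen, were Nfkbib and Fam49a. Nfkbib, an inhibitor of NF-kappaB, stood at 0.63, 0.42, 0.73, 0.70 and 0.19 on HF20 and at 1.02, 1.04, 0.84, 1.67, 1.01 and 0.75 on HFC, for a difference of -0.53 ± 0.48. It was not measured on the HF20 array of Week 15. Fam49a, now named Cyria, had -1.04 ± 0.49 and was well above background on 2 of the HF20 arrays. The 9 higher genes were well above background on 4 to 8 arrays each, and Lrrc8e, a subunit of volume-regulated channels, was measured at Week 15 too, with 2.40 ± 0.59.

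Inflammatory genes did not keep one direction through the weeks. Of 17 tested, 13 were lower (59.4% of all genes) with a median of -0.51, but the median by week was -0.90, 3.90, 4.86, -8.26, -3.73 and -1.27. All 17 were higher on HF20 at Week 6 (44.1% of all genes were lower then) and 15 of 17 at Week 9 (44.4% of all genes were lower), and 16 of 17 were lower at Week 12 (48.8% of all genes were lower at Week 12). Without Week 12 the median of the list was 1.24, with 2 of 17 lower (58.6% of all genes). Without Week 15 it was -0.27, with 10 of 17 lower (47.3% of all genes). Il6 stood at 1.97, 0.44, 1.60, -8.72, 0.51 and -0.01 on HF20 and at 1.91, -8.69, -5.65, 3.98, 4.66 and -0.16 on HFC. So Il6 was near its lowest readable level on HFC at Week 6 and on HF20 at Week 12, and the fitted difference of -0.04 ± 2.32, or 2.49 ± 1.58 without Week 12, has a standard error well over the median of 0.62. Ccl3, a chemokine of macrophages, followed the same course, at -0.99, 0.05, 1.08, -8.56, -1.73 and -1.25 on HF20 and at 0.31, -6.08, -6.18, 4.14, 1.68 and 0.25 on HFC. Il1b had -0.29 ± 1.67 and Tnf -0.61 ± 1.70. None of these could be told from 0 with the spread between weeks.

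Apart from mast cell genes, whose median at Week 12 was 0.02, the immune cell lists had the sign of the inflammatory genes at Week 6, Week 9 and Week 12. Macrophage genes had medians of -0.48, 1.44, 2.26, -3.56, -2.09 and 0.28. At Week 6, 21 of 21 were higher (44.1% of all genes were lower then). At Week 12, 20 of 20 were lower (48.8% of all genes). Over all weeks 15 of 21 were lower (59.4% of all genes), with a median of -0.25. Without Week 12 the median was 0.49, and without Week 15 it was 0.03, with 10 of 21 lower (47.3% of all genes). Csf1r, the receptor for the macrophage growth factor, had -0.38 ± 0.73, Cd68 0.03 ± 0.95 and Mrc1, a mannose receptor of resident macrophages, -0.32 ± 0.84. T cell genes had medians of -0.73, 1.65, 5.17, -4.62, -1.95 and -0.44, and B cell genes -0.53, 1.99, 4.58, -3.81, -1.58 and -0.78. Genes of major histocompatibility class II presentation had -0.81, 1.08, 2.98, -3.26, -3.85 and 0.18, and those of natural killer and cytotoxic cells -0.92, 0.98, 6.10, -5.37, 3.81 and -0.85, the value of Week 15 resting on 3 genes. Genes of alternative activation had 1.22 at Week 6, 2.96 at Week 9 and -3.67 at Week 12, with an overall median of -0.38, or 0.55 without Week 12 and -0.18 without Week 15. The overall medians of T cell, B cell and natural killer genes were 0.14, 0.52 and 0.06, against 1.42, 1.45 and 1.38 without Week 12, and -1.18, -0.67 and -1.48 without Week 9. Without Week 15 they were 0.25, 0.29 and 0.08. Class II genes had -0.03 over all weeks, 0.60 without Week 12, -0.87 without Week 9 and 0.27 without Week 15. The direction of these lists thus rested on single weeks. At Week 9 the median HFC levels of T cell, B cell and natural killer genes were -4.45, -4.50 and -5.19. The lowest signal of the HF20 array there was -3.59, so genes at those levels could not read as low on HF20. The HF20 medians were -0.24, 0.57 and 0.76. The part of this floor in the Week 9 values was not tested. The part of these cell types in the inflammatory values was not tested.

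Neutrophil genes had the highest median of the 28 lists. Of 18 tested, 17 were higher on HF20 (40.6% of all genes), with a median of 1.38, and 18 without Week 15 (52.7% of all genes), with a median of 1.75. Without Week 9 the median was 0.46, with 13 of 18 higher, and without Week 12 it was 2.33. At Week 9 the median level was 0.44 on HF20 and -5.15 on HFC, the latter under the lowest signal of the HF20 array, -3.59. By week the median was -0.63, 3.39, 6.70, -2.22, -1.29 and 2.17, and the list had a median of -0.02 in the weeks with a shared scan date, the one setting of 24 in which it was not above 0. S100a8, a subunit of the calprotectin that neutrophils carry, was at 2.72, 1.28, 5.61, -1.76, 0.75 and 6.86 on HF20 and at 2.35, -3.38, -1.88, 0.11, 3.69 and 4.86 on HFC. It was higher on HF20 at Week 3, Week 6, Week 9 and Week 18 and lower at Week 12 and Week 15, for a difference of 1.62 ± 1.21. Ngp, a neutrophil granule protein, had 3.36 ± 1.07 with an unadjusted p of 0.0121 in limma, but was well above background on 3 of the HF20 and 2 of the HFC arrays. It had no pair at Week 12, where 14 of 15 measured neutrophil genes were lower on HF20. Ly6g, the surface marker by which neutrophils are sorted, had -0.11 ± 0.67.

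Fat cell genes had the opposite sign to the immune genes at Week 6, Week 9 and Week 12. The brown fat list had medians of 0.74, -2.01, -1.27, 6.01, -4.07 and 0.73, and the general fat cell list 0.21, -2.69, -1.60, 3.45, -3.82 and 0.43. At Week 12 all 17 brown fat genes measured and all 16 fat cell genes were higher on HF20 (48.8% of all genes were lower then). The HFC array of that pair was low in brown fat markers. The HF20 array of Week 12, whose title ends in BA, had the highest fat cell median of the HF20 arrays, 5.81. It also had their lowest inflammatory median, -5.07. On the HFC arrays of Week 6 and Week 9 the fat cell medians were 5.71 and 5.91. Their inflammatory medians were -4.66 and -3.50. The part of these arrays in the opposite signs was not tested. At Week 6 and Week 9 the HFC levels of Ucp1, Cidea, Adipoq, Plin1 and other abundant genes were at the scanner's ceiling, in 12 of 34 fat genes on either array, and are lower bounds. Over all weeks 14 of 18 brown fat genes were higher, with a median of 0.57, and 13 of 16 fat cell genes were lower, with a median of -0.22 (40.6% of all genes were higher and 59.4% lower). Without Week 12 the brown fat median was -0.53, so its direction rested on that week, and without Week 15 it was 0.71. The fat cell median was -1.35 without Week 12, 0.03 without Week 15 and 0.19 without Week 6. Ucp1 had 1.56 ± 1.44, 2.92 ± 1.32 without Week 15 and -0.05 ± 0.96 without Week 12, with 3 of its readings at the ceiling. These were HFC at Week 6 and Week 9 and HF20 at Week 12. The HFC bounds lay under the HF20 levels, so the direction of Ucp1 at Week 6 and Week 9 cannot be read. Its fitted differences rest on these cut readings and are not estimates of its size. Prdm16, a regulator of brown fat identity, had -0.35 ± 0.62. Adipoq, the hormone adiponectin, was at 4.43, 2.63, 4.59, 6.15, 1.12 and 4.73 on HF20 and at 3.89, 6.51, 6.18, 2.72, 3.85 and 4.78 on HFC, for -0.71 ± 0.86, or -1.54 ± 0.70 without Week 12.

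The genes of lipid and energy metabolism were likewise highest at Week 12. Fatty acid oxidation genes were higher in 15 of 19 (40.6% of all genes), with a median of 0.25. Without Week 15 they were higher in 18 of 19 (52.7% of all genes), with a median of 0.84, but without Week 12 the median was -0.60. Respiratory chain genes had a median of -0.07, which was 0.50 without Week 15 and -0.69 without Week 12, with 26 of 27 lower (58.6% of all genes without Week 12). Most genes of both lists were at the scanner's ceiling on 1 or more of HFC Week 6, HFC Week 9 and HF20 Week 12. Their levels there are lower bounds, so the sizes and signs of these medians rest partly on cut readings. Lipogenesis genes were higher in 15 of 20 (40.6% of all genes), with a median of 0.34, 0.65 without Week 15 and -0.58 without Week 12. Fasn, the fatty acid synthase, was at 7.16, 7.91, 9.08, 6.11, 2.53 and 7.24 on HF20 and at 5.17, 6.44, 6.17, 3.78, 6.68 and 6.48 on HFC. The HFC levels at Week 6 and Week 9 and the HF20 level at Week 12 were at the ceiling and are lower bounds, so the direction at Week 6 and Week 9 cannot be read. It was higher on HF20 at Week 3, Week 12 and Week 18 and lower at Week 15, and no difference is given. Sterol synthesis genes had a median of -0.08, with 13 of 21 lower, near the share of all genes (59.4%), and 0.04 without Week 15.

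Other cell types in the samples also differed between the pairs. Skeletal muscle genes had medians of -4.48, -2.07, -0.72, 6.09, -3.47 and -0.72, and 18 of 18 were lower at Week 3 (51% of all genes). Over all weeks 16 of 18 were lower (59.4% of all genes) with a median of -0.51, which was -0.43 without Week 15, -2.10 without Week 12 and 0.22 without Week 3. Tcap, a protein of the sarcomere, had -2.56 ± 0.92. Myl3, a myosin light chain named among the 12 lower genes, had -1.87 ± 0.63 over 5 weeks, with 0.16 on HF20 and 4.09 on HFC at Week 3, while a further probe of Myl3 gave 0.15 ± 0.78. Neither Tcap nor Myl3 had a pair at Week 12, where 16 of 16 measured muscle genes were higher on HF20. The HF20 level of Myl3 was highest at that week, at 4.60, so its one sign rests on the weeks measured. Mesothelial genes, of which 4 of 11 were tested, had -8.83 at Week 12 and medians between -0.53 and 2.39 in the other weeks. Their overall median was -0.93, also without Week 15, and 0.96 without Week 12. Erythroid genes were higher in 8 of 10 (40.6% of all genes), with a median of 0.92, 1.24 without Week 15, 0.44 without Week 6 and 0.34 without Week 9. Hbb-b1, a globin, was at 11.77 on HF20 and 6.17, at the ceiling, on HFC at Week 9. Fibroblast and matrix genes were lower in 21 of 23 (59.4% of all genes), with a median of -0.58, or -0.12 without Week 15. The median was 0.36 without Week 12 and Week 15. The part of muscle, mesothelium, blood and matrix in the other lists was not tested.

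Clock and iron genes kept the sign of their median in all 24 alternative settings. Of 14 clock genes tested 11 were lower (59.4% of all genes), with a median of -0.48, and -0.27 without Week 15. Nr1d1, the repressor REV-ERB alpha, was lower in all 6 weeks, at -0.61, 0.07, -0.22, 0.46, -4.36 and -3.28 on HF20 and at 0.20, 1.07, 0.00, 0.49, -0.03 and -0.85 on HFC. Its values nearly coincided at Week 12 and parted at Week 15 and Week 18. The difference was -1.47 ± 0.63, and -0.90 ± 0.47 without Week 15. The hour of tissue collection is not given in the sources used here. Of 13 iron genes 10 were lower (59.4% of all genes) with a median of -0.30, or -0.05 without Week 15 and -0.10 without Week 6. Over all genes the median was 0.03 without Week 15 and -0.16 without Week 6. Slc11a2, the iron transporter DMT1, was higher in every week measured, at 2.01 ± 0.66 with an unadjusted p of 0.012 in limma.

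**Figure D5:**
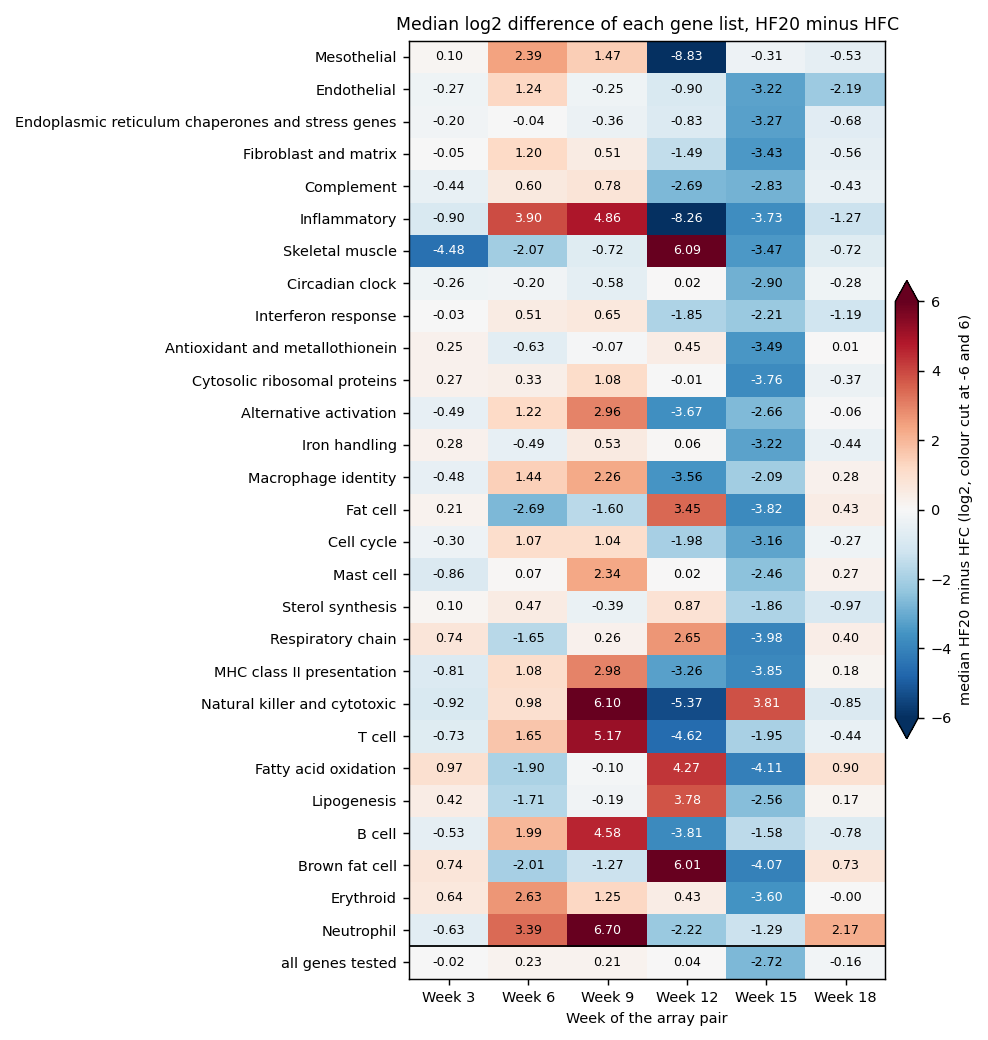
Median difference HF20 minus HFC (log2) of the tested members of each of the 28 gene lists, by week, with all genes tested in the last row. Immune lists are above 0 at Week 6 and Week 9 and, except for mast cells (0.02), below 0 at Week 12, the fat cell lists run the opposite way, and Week 15 is below 0 for nearly all lists and for all genes (-2.72).

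Of the 28 lists, 6 kept the sign of their median in all 24 alternative settings, 5 below 0 (ER, interferon response, endothelial, circadian clock and iron handling) and 1 above (erythroid). This sign is taken against 0 and not against all genes. Without Week 12 the interferon median lay above that of all genes (-0.21). The iron median without Week 6 also lay above that of all genes (-0.16). The medians of the remaining 22 changed sign in at least 1 setting, 8 of them when Week 12 was left out and 8 when Week 15 was. Cytosolic ribosomal proteins had a median of -0.39, and 0.15 without Week 15, with several members such as Rps18 at the ceiling on the bright arrays. Antioxidant and metallothionein genes had -0.41, and 0.08 without Week 15. Complement genes had -0.57, or -0.16 without Week 15 and -0.10 without Week 12. Cell cycle genes had -0.20, or -0.004 without Week 15 and -0.05 without Week 12, and mast cell genes -0.12, or 0.25 without Week 15.

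The other doses of KAL-1 were measured in the same weeks, against the same HFC arrays, so their values share these controls and are set side by side without a test. In a fit of the 24 arrays, Hspa5 had -0.23 ± 0.55 with 5 µg, -1.58 ± 0.55 with 20 µg and -0.76 ± 0.55 with 75 µg. Bst2 had -0.51 ± 0.46, -1.40 ± 0.46 and -0.49 ± 0.46 in the same order, and Scarb1 -1.04 ± 0.47, -1.37 ± 0.47 and -1.03 ± 0.47. Il12rb2 had 0.97 ± 0.92, 2.60 ± 0.92 and 2.82 ± 0.92. The median of the ER list was -0.23, -0.63 and -0.43, that of the neutrophil list 0.99, 1.15 and 1.35, and that of the endothelial list -0.64, -0.85 and -0.20. Over all genes it was -0.10, -0.12 and -0.02. The 4 genes were chosen by their values at 20 µg, and the Week 15 array with 71.4% of spots flagged is a 20 µg array. Without Week 15 the paired comparison at 20 µg gave -1.03, -1.11, -1.03 and 3.02 for Hspa5, Bst2, Scarb1 and Il12rb2. The ER, neutrophil and endothelial medians were then -0.41, 1.75 and -0.47. The other doses were not fitted without Week 15, so a ranking of the doses cannot be read from these values.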

How the data were processed

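Total RNA of brown fat SVCs was labelled with Cy3 and hybridised to Agilent 1-colour mouse arrays of design 025293. The deposited files give each spot's intensity, background-subtracted by Feature Extraction 10.5.1.1 per the file headers (version 9.1 in the submitters' processing notes) and not normalized between arrays. The deposited table of the series holds the authors' own log2 fold changes of each array against the low-fat array of the same time point, and none of it was used.

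Spots marked as nonuniform or population outliers were left out. The log2 of the processed signal minus the array's 75th percentile over 43803 spots other than controls was averaged per probe (40628 probes, 29411 gene names). The 12 arrays were grouped by the diet in the labels. The diets were compared in limma (version 3.58.1, R version 4.3.3), two-sided, with the week as a block and Benjamini-Hochberg adjustment at 0.05, for 27486 probes well above background on at least 4 arrays and measured on both arrays of at least 4 weeks. Each gene was read from its probe of highest mean signal. Named genes are the 12 higher and 12 lower genes of smallest p that were well above background on at least 9 arrays and had one sign in every week measured, and genes of 28 lists. Of the 19952 genes tested, 17110 were found in the RefSeq gene table. The members and lists were chosen with earlier results of these data known. The fit was tested on simulated data. The numbers of arrays and the signal over background limit the precision. The alternatives covered scaling, background, flags, filters, tests, fits on 24 and 39 arrays, scan dates, slides and each week left out.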

Additional observations from a re-analysis of the deposited data

Results flagged for a closer look

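In 110 groups of 6 values (the named genes, the list medians and the array measures), 9 had a highest or lowest value whose gap to the nearest other passed Dixon's 95% criterion, and chance flags about 1 in 20 such groups. Of these, 5 belonged to the HF20 array of Week 15. Its 75th percentile of 3974 and its 71.4% of spots flagged as outliers were the highest of the HF20 arrays. On the same array the median level of the measured fatty acid oxidation genes was 0.54, that of the respiratory chain genes 1.37 and that of the ribosomal protein genes 2.87, each the lowest of the HF20 arrays.

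On the HF20 array of Week 12 the median level of the inflammatory genes, -5.07, was the lowest and that of the brown fat genes, 3.15, the highest of the HF20 arrays. On the HFC array of Week 12, 11.1% of spots were flagged as outliers, the most of the HFC arrays. Bst2 at Week 3, with a level of 4.87, was the highest of the HFC arrays, and without Week 3 its difference was -1.18. No explanation of these values was tested.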

How the results depend on the processing

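Under all 24 alternative settings 0 probes passed an adjusted p of 0.05, and the lowest adjusted p of any setting was 0.242. The 557 values of the named genes under these settings kept their sign, which the choice of genes with one sign in every week fixes for settings that leave out weeks. Of the list medians, those of 6 lists kept their sign and those of 22 did not. The count of probes at an unadjusted p under 0.05, 1105 in the fit reported, was 508 with no replicate block, 707 in the fit of 24 arrays, 651 with the slide as a random block, 115 in the weeks with a shared scan date, 736 with each array's median, 214 with normexp, 186 with probes above background on all 12 arrays, 1906 with array weights and 382 by the methods' t-test. With 1 week left out it lay between 356 (without Week 9) and 2629 (without Week 12), with 707 without Week 6 and 528 without Week 18. Without both Week 12 and Week 15, a setting chosen after seeing the data, it was 2868. The cause was not tested. Counts of probes at least 2-fold apart with 1 array well above background were 5524 at Week 3, 12161 at Week 9 and 9484 at Week 18, since more probes enter, and with flagged spots kept 19598 at Week 15.

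The pairing by week was checked by the correlation of the deviations of the 2 arrays of a week from the means of their diets, over probes measured in the 5 other weeks than Week 15. In order of time it was 0.28, -0.26, -0.27, -0.46 and 0.49, so the weeks do not all pair. The block was kept as planned, and without it 0 probes passed.

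Each of the 12 arrays lay on a slide of its own, and the pairs of Week 3, Week 9 and Week 18 were scanned on different dates, so that in these weeks scan and diet cannot be told apart. Dim arrays read weak genes less precisely, with 35.7% of spots well above background on the HF20 array of Week 9.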
